A study of Mus musculus with 4 samples.

Results

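Tbx5, Tbx4, Pitx1 and Isl1 are the transcription factor genes that set apart forelimb and hindlimb, and the accessible chromatin around them was described in mouse limb buds. Accessible regions had been mapped by ATAC-seq, in which a transposase inserts sequencing adapters into open chromatin. A region was assigned to one of these genes when the protein-coding transcription start nearest to its centre belonged to that gene, or when its centre lay within 2.5 kb of one of the gene's starts, and the second condition added 0 regions. The assignment gave 58 of the 89378 regions, 30 among 42613 for E9.5 and 28 among 46765 for E10.5.

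The embryos were wild-type NMRI mice with no transgene or mutation named in either group. Each stage had 2 replicates, each with both forelimb buds of a single embryo. The E9.5 samples, which the protocol dates slightly later than their titles, kept the adjoining trunk, whereas the E10.5 protocol names forelimb buds alone, so that stage and trunk tissue cannot be told apart in any comparison. For the E10.5 samples, hindlimb buds appear in the tissue label as well, but not in the source label or the protocol. The authors combined the replicates of a stage into 1 list of regions, so that values come without an error between embryos and the stages could not be tested against each other. ATAC-seq of whole tissue also cannot tell fewer cells with an open region from less opening per cell.

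Tbx5 is expressed in the forelimb field, where it is required for the limb to start growing and activates Fgf10, and it is also a gene of the heart. Tbx4, its paralogue, is a hindlimb gene that is active in the lung and allantois too. Pitx1 encodes a paired-type homeodomain factor that gives the hindlimb its character and acts upstream of Tbx4. Isl1 encodes a LIM homeodomain factor that is needed for hindlimb initiation and is best known from motor neurons and the progenitors of the heart. Pitx1, Tbx4 and Isl1 are thus genes of the other limb wherever a sample holds forelimb buds alone. If the E10.5 samples held hindlimb buds, as their tissue label says, the E10.5 values of these 3 genes would include tissue of that other limb. A region that is open marks accessible DNA and does not by itself report transcription.

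The DNA just upstream of the annotated starts differed widely between the genes, and it is shown for the outermost start of each gene and for the inner start of Pitx1, which lay in a region found at E9.5 alone. Each line gives the 250 bases before a start in the mm9 genome, on the strand of the gene. Capitals mark matches to the short motifs described with the sequence content of the regions.
Isl1, chr13:117099897-117100146, minus strand: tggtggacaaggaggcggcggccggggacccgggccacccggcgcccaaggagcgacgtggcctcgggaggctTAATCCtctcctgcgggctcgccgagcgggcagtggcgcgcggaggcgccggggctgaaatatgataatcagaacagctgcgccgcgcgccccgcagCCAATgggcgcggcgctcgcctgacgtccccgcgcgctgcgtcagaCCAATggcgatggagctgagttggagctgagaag
Pitx1, start within the gene, chr13:55932787-55933036, minus strand: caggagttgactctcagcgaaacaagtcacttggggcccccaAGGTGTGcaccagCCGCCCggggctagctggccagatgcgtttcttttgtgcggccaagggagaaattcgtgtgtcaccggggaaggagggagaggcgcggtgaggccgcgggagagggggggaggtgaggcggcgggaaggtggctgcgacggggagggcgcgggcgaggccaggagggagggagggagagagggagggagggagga
Pitx1, outermost start, chr13:55937554-55937803, minus strand: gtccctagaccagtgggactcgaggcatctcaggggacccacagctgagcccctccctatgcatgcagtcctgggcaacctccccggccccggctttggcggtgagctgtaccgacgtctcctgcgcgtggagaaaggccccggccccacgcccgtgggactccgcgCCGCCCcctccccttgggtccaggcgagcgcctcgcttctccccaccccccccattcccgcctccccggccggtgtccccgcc
Tbx4, outermost start, chr11:85699674-85699923, plus strand: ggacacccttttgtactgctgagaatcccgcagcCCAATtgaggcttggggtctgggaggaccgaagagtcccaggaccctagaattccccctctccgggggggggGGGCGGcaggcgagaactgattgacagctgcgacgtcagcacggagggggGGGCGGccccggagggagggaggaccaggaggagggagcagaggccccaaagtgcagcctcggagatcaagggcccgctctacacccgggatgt
Tbx5, chr5:120284422-120284671, plus strand: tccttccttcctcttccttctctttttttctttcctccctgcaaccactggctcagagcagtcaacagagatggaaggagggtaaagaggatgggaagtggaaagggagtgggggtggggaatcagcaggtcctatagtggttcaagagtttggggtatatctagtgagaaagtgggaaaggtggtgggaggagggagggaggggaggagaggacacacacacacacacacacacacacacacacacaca
The Isl1 stretch held 33 CG dinucleotides, those of Pitx1 18 and 21, that of the outermost Tbx4 start 13 and that of Tbx5 0. Upstream of the inner Tbx4 starts, which are not shown, there were 8 and 6. Over 69978 protein-coding starts the median was 8 CG dinucleotides, and 5.66% of the starts had none. The Isl1 sequence held 1 PITX match and 2 NF-Y matches, the inner Pitx1 start a T-box and an SP match, and the Tbx5 sequence no match to any of the 13 motifs searched. A PITX match was present upstream of 6.41% of all starts, a T-box match of 4.80%, an NF-Y match of 31.8% and an SP match of 37.5%.

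Regions that touched one of the other stage by 1 bp or more are called shared, and all others specific to their stage. At E9.5, 12 of the 30 regions (40%, 95% Wilson interval 24.6 to 57.7%) were stage-specific, against 29.9% of the whole list. At E10.5 the number was 10 of 28 (35.7%, 20.7 to 54.2%), against 35.0% of the whole list. The pooled shares were thus near the background at both stages. These intervals cover counting error only and treat neighbouring regions as independent.

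The genes differed from each other. Pitx1 had 5 E9.5-specific regions among 6 (83.3%, 43.6 to 97.0%) and 0 of 1 at E10.5. Isl1 had the opposite order, with 2 of 12 at E9.5 (16.7%, 4.70 to 44.8%) and 7 of 17 at E10.5 (41.2%, 21.6 to 64.0%). For Tbx5 the counts were 2 of 4 and 1 of 3, and for Tbx4 3 of 8 and 2 of 7. The E9.5 share minus the E10.5 share was 83.3 percentage points for Pitx1 (interval -5.38 to 97.0), 16.7 for Tbx5 (-41.1 to 61.0), 8.93 for Tbx4 (-33.8 to 46.8) and -24.5 for Isl1 (-50.3 to 9.76). Each of these intervals contains 0. The intervals treat the 2 shares of a gene as independent, although shared regions enter both, so they give the counting error only roughly. The direction for Tbx4 turned when the higher-scoring 50% of each list was used, with a difference of -66.7 points over 1 and 3 regions.

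**Figure D1:**
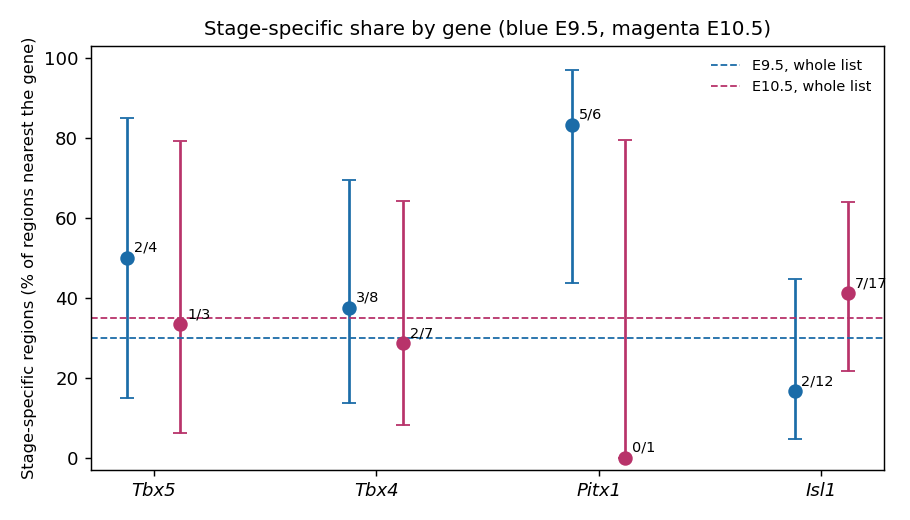
Percentage of regions found only at their own stage, on the vertical axis, for the 4 genes, with E9.5 and E10.5 side by side. Points are shares labelled with their counts, bars are 95% Wilson intervals that cover counting error only, and dashed horizontal lines give the whole lists at 29.9% and 35.0%. Pitx1 at E9.5 stands at 83.3% and Isl1 at E9.5 at 16.7%, both with wide intervals.

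Of the 12 E9.5-specific regions, 5 lay close to a start and 7 did not. Regions centred no more than 2.5 kb from a protein-coding start count as promoter-proximal, and 5 of the 7 promoter-proximal E9.5 regions of these genes were E9.5-specific (71.4%, 35.9 to 91.8%), against 13.1% of all promoter-proximal E9.5 regions. The list share is not matched for score, which is described with Pitx1 below. The 7 regions had a median score of 190.16, and all promoter-proximal E9.5 regions one of 898.9. Among promoter-proximal E9.5 regions in the score deciles of the 5 specific ones, 20.6% to 70.9% were E9.5-specific. At E10.5 there were 3 promoter-proximal regions of these genes and 0 were specific, against 5.31% of the list. Distal regions gave 7 of 23 at E9.5 (30.4%, list 40.3%) and 10 of 25 at E10.5 (40%, list 49.6%). The distance of 2.5 kb divides similar regions, since a Tbx5 region at E10.5 centred 2.343 kb from the start counts as proximal, whereas its E9.5 partner at 2.595 kb and an Isl1 region at 2.675 kb do not.

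Such a region was present for all 4 genes at E9.5, and for Tbx5, Tbx4 and Isl1 at E10.5 too. Over 22380 protein-coding genes, 61.3% had such a region in both lists and 3.75% at E9.5 alone, the class in which Pitx1 falls. An absent region means that none passed the threshold of the combined list, whose lowest scores were 60.52 and 60.44, and not that the chromatin was closed.

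**Figure D2:**
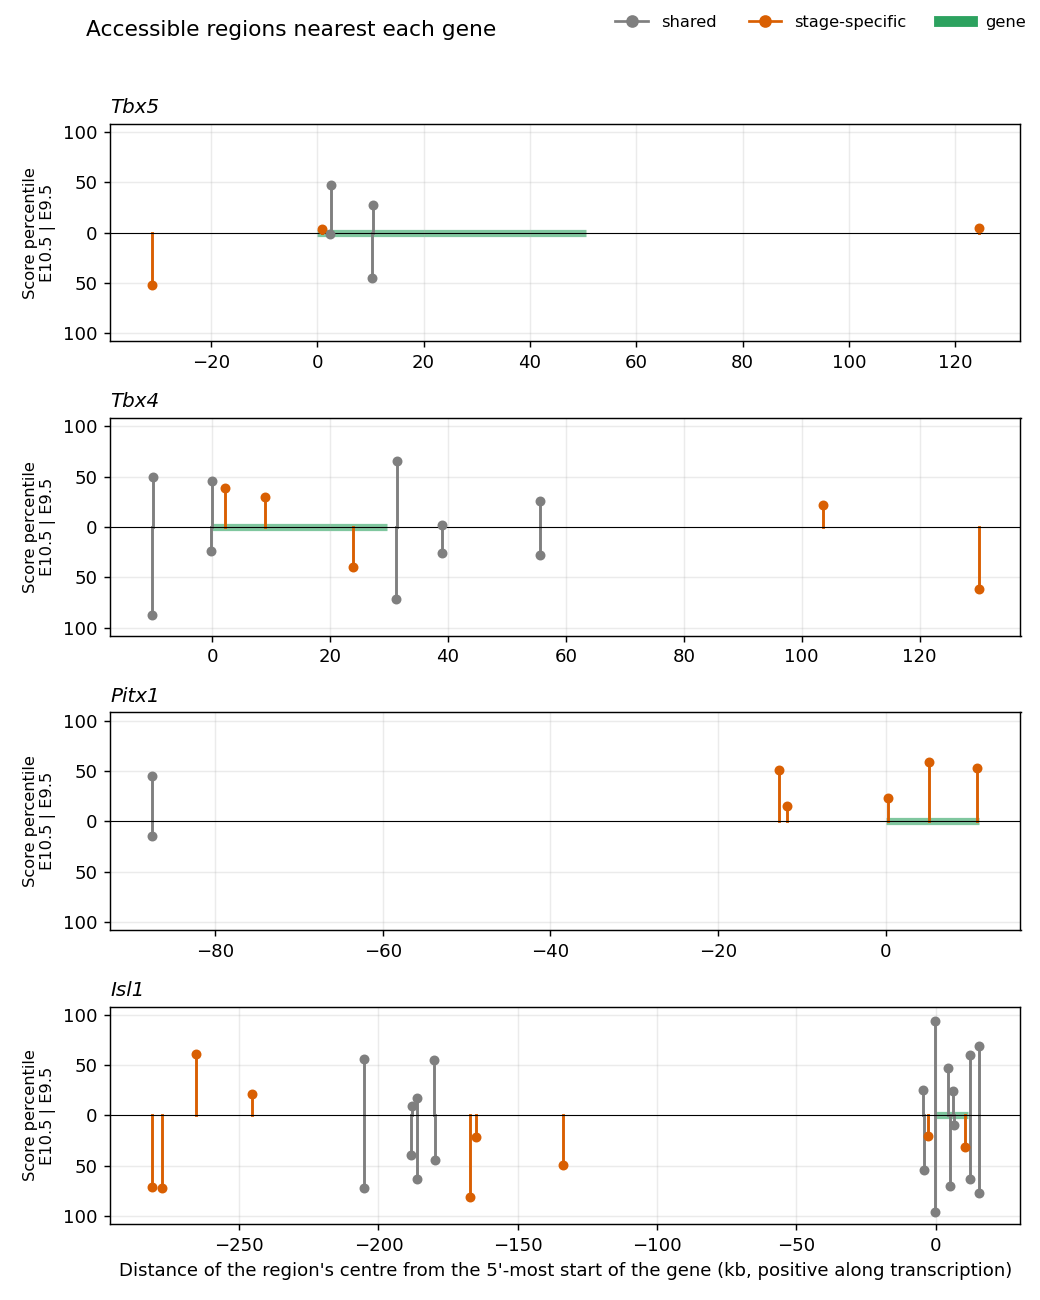
Accessible regions around Tbx5, Tbx4, Pitx1 and Isl1, by distance in kb from the outermost annotated start, with each point 1 region and its distance from the centre line the percentile of its score within its list, E9.5 upwards and E10.5 downwards. Colour separates shared from stage-specific regions and the bar along the axis spans the gene. Pitx1 has 5 specific regions at E9.5 and none at E10.5, and Isl1 has a cluster far upstream of the gene at both stages.

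Pitx1 lies at chr13:55926415-55937553 on the minus strand and has starts at 55937553 and 55932786. Each start was covered at E9.5. The region over the inner start (chr13:55931284-55933417, 2134 bp) had a score of 363.61 and was centred in exon 2. Of the E9.5 promoter-proximal regions in the same score decile, 224 of 1089 (20.6%) were likewise E9.5-specific. The region over the outer start (chr13:55936819-55937736) scored 135.81, and in its score decile 54.5% were specific. The score is the best MACS p-value of a region, as its negative log10 multiplied by 10, so that it grows with sequencing depth, which is unknown here, and scores are therefore also given as percentiles of their own list.

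The other Pitx1 regions at E9.5 lay at the end of the gene and upstream. A wide region of 2883 bp at the end of the gene (chr13:55925266-55928148) scored 290.34. A pair of neighbouring regions was centred 11.8 and 12.8 kb upstream, with scores of 116.36 and 269.76. At E10.5 nothing overlapped these 5 regions, and the nearest E10.5 region lay between 73.8 and 95.4 kb away. The single shared region was centred 87.5 kb upstream, with a score of 225.11 at E9.5 (percentile 45.2) and 113.6 at E10.5 (percentile 14.9).

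The stronger member of the upstream pair is shown as the highest-scoring distal Pitx1 region outside the gene. Its centre holds a match to the TCF/LEF motif, the site bound by the nuclear partners of beta-catenin, next to an NF-Y and a GATA match.
Pitx1, 12.8 kb upstream, chr13:55950195-55950494, minus strand: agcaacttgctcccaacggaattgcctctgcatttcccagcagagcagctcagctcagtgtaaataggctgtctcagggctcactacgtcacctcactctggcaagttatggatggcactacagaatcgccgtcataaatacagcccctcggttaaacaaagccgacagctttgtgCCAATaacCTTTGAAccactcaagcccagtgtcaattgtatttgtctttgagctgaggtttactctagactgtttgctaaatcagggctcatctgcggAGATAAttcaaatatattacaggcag
Of 1758 gene symbols with at least 6 regions at E9.5, 29 (1.65%) had at most 1 at E10.5, Pitx1 among them. Of 2384 symbols with at least 5 regions at E9.5, 53 (2.22%) had an E9.5-specific share as high as that of Pitx1, and the median share was 37.2%. The genes next to Pitx1 had other counts. H2afy, a histone macroH2A gene, had 2 of 4 specific regions at each stage, and Catsper3, a sperm ion channel gene, had 0 regions in either list.

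Tbx4 lies at chr11:85699924-85729599 on the plus strand and has starts at 85699924, 85703565 and 85710267. Its outermost start was covered at both stages, by a region with a score of 229.23 at E9.5 (percentile 45.8) and of 135.17 at E10.5 (percentile 24.3). The region around it was therefore lower in rank at E10.5. Upstream of the inner starts, regions centred 1.398 and 1.45 kb before them, in introns 1 and 3, scored 190.16 and 153.01 and were found at E9.5 alone. Among proximal E9.5 regions of similar score, 46.9% and 54.5% were E9.5-specific.

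The most highly ranked Tbx4 region at E10.5 lay about 10 kb upstream of the gene. It had a score of 258.37 at E9.5 (chr11:85689268-85690514, percentile 49.8) and of 1085.77 at E10.5 (chr11:85688785-85690597, percentile 87.6). A difference of 37.8 percentile points or more towards E10.5 was seen in 5.49% of the 29883 shared E9.5 regions, whose median difference was 0.076 (interquartile range -9.71 to 9.49). Its E10.5 centre is printed here because it had the highest score of any Tbx4 region at E10.5, with a LIM homeodomain match in capitals.
Tbx4, 10 kb upstream, chr11:85689541-85689840, plus strand: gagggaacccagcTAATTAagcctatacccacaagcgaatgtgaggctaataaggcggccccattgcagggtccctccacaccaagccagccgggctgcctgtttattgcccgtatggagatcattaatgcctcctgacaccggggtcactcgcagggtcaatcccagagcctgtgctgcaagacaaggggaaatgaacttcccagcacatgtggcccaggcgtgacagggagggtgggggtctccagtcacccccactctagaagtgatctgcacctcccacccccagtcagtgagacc
Beyond the end of the gene, a shared region had scores of 483.79 and 513.58, and the remaining shared ones, 28.7 and 45.3 kb from the nearest start at E9.5, scored 80.26 and 141.06 at E9.5 and 139.72 and 144.16 at E10.5. Specific to E9.5 was a region 93.2 kb downstream, with a score of 131.12. Specific to E10.5 were a region in intron 5 (chr11:85723197-85724295, score 185.65) and one 119.8 kb downstream (chr11:85829244-85830800, score 350.1). All 4 regions downstream of Tbx4 at E9.5, and 5 of the 7 Tbx4 regions at E10.5, were nearer to the start of a microRNA gene or pseudogene than to Tbx4 once genes of every type were counted.

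Isl1 lies at chr13:117088478-117099896 on the minus strand, with 1 start at 117099896. The region over this start was the strongest of all 58 in both lists, with a score of 2109.06 at E9.5 (chr13:117098889-117101287, percentile 93.8) and of 1988.93 at E10.5 (chr13:117098826-117101299, percentile 95.9). Promoter-proximal regions of such scores were almost always shared, since 2 of 3957 were specific at E9.5 (0.0505%), and at E10.5 0 of 3892. A promoter region of this hindlimb gene was thus listed at both stages, with the doubt about the tissue of the E10.5 samples noted above.

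Isl1 also had many regions, 12 at E9.5 and 17 at E10.5, and 1.47% and 1.02% of 22238 gene symbols had at least as many. With starts of genes of every type, 7 and 12 regions were left to Isl1, since 5 of its regions in each list were nearer to a 5S rRNA gene, and within 100 kb of the start there were 6 and 10. The regions fell into a group no farther than 15.5 kb from the start, with 6 regions at E9.5 and 8 at E10.5, and a group at least 134 kb upstream, with 6 and 9. Each shared E9.5 region was set against its highest-scoring E10.5 partner, and 9 of 10 then stood at a higher percentile at E10.5, with a median difference of 19.5 points. With the partner of longest overlap instead, the count was 8 of 10 and the median 11.8 points. The choice matters for 1 region in intron 3 (chr13:117093034-117094405, percentile 23.8), whose E10.5 partners stood at percentile 70.4 and, wholly inside it, at 9.66. The largest difference that did not depend on the choice was 46.2 points, for a region 186 kb upstream (chr13:117285622-117286458), and 3.31% of all shared regions had a difference that large. Lower at E10.5 under either choice was a region 180 kb upstream, which had a score of 307.68 at E9.5 (percentile 54.9) and a lower one of 208.48 at E10.5 (percentile 44.4). The intron 3 region shares its higher-scoring E10.5 partner with a neighbouring E9.5 region, so that these 2 values are not independent.

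Over all 4 genes, 14 of 18 shared E9.5 regions (77.8%) ranked higher at E10.5 than at E9.5 by the highest-scoring partner, with a median of 11.8 points, and 13 of 18 (72.2%) by the longest overlap, with a median of 6.94 points. Among all 29883 shared E9.5 regions 50.2% and 50.1% ranked higher. The 4 that were lower under either choice were the Tbx4 start, the Pitx1 region 87.5 kb upstream, the Isl1 region 180 kb upstream and an intronic region of Tbx5. Isl1 gave 9 of the 14 that ranked higher. The background is not matched for distance to a start, since 16 of the 18 regions were distal. Shared distal regions of the whole lists had a median percentile of 43.1 at E9.5 and 47.8 at E10.5.

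**Figure D3:**
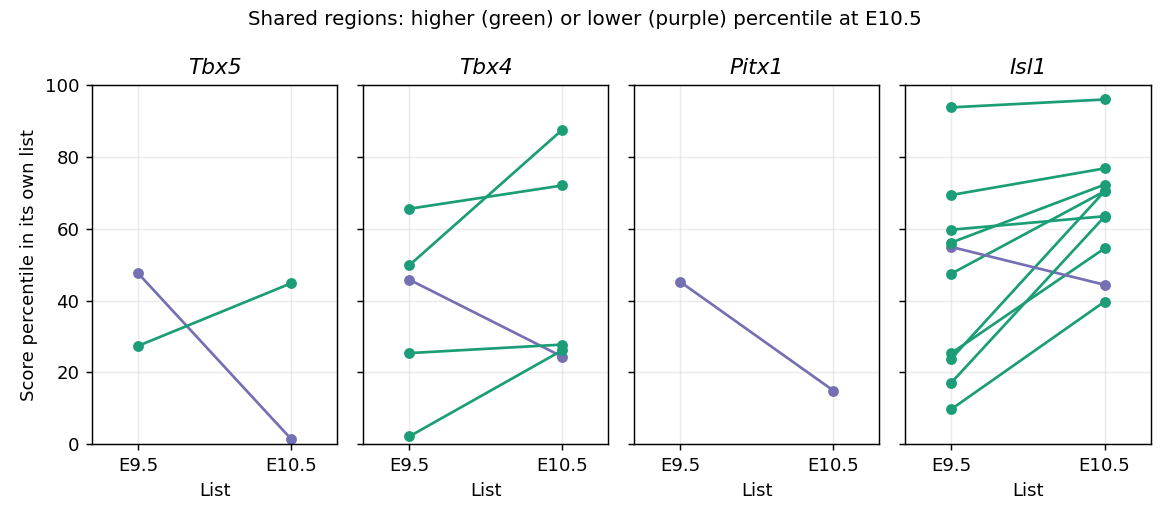
Score percentile of each shared E9.5 region and of its highest-scoring partner at E10.5, with 1 line per region and 1 panel per gene. Percentiles are taken within the list of each stage. Green lines go up for 9 of 10 Isl1 regions and 4 of 5 Tbx4 regions, and a purple line goes down for the single Pitx1 region.

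E10.5-specific regions of Isl1 were found near and far. Near the gene lay one at exon 6 (score 155.53) and one 2.675 kb upstream (score 126.08), and each lay within 0.61 kb of an E9.5 region. Far upstream lay regions at 134 kb (score 236.12), 165 kb (127.9), 167 kb (748.25), 278 kb (507.24) and 281 kb (496.34). The strongest, at chr13:117266088-117268102, stood at percentile 80.5, and 22.5% of distal E10.5 regions in its score decile were specific. Its nearest E9.5 region lay 11.3 kb away. The E9.5-specific regions were centred 245 kb (score 130.21) and 266 kb (score 384.62) upstream, and the latter lay 11.2 kb from an E10.5-specific region.

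Sequences of 3 distal Isl1 regions are shown, namely the strongest E10.5-specific one, the shared one that ranked lower at E10.5 and the shared one past the end of the gene with the highest distal score at E9.5. Capitals mark matches to PITX (TAATCC), LIM homeodomain (TAATTA), HOX-PBX (TGATNNAT), NF-Y (CCAAT) and SMAD (GTCTAGAC) motifs and to the letters AGATAA of GATA factors, on either strand.
Isl1, 167 kb upstream, chr13:117266945-117267244, minus strand: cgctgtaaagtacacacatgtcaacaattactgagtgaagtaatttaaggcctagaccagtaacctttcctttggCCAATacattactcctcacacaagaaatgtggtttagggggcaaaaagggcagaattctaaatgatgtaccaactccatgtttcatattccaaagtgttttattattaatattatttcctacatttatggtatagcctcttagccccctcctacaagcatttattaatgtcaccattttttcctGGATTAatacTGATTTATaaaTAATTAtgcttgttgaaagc
Isl1, 180 kb upstream, chr13:117279630-117279929, minus strand: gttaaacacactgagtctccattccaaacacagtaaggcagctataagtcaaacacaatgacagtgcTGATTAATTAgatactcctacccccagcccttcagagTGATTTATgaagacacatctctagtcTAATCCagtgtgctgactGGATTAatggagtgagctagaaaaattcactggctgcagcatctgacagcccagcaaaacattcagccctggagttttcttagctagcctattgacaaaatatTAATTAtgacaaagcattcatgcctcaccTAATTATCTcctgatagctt
Isl1, 15.5 kb downstream of the start, chr13:117084198-117084497, minus strand: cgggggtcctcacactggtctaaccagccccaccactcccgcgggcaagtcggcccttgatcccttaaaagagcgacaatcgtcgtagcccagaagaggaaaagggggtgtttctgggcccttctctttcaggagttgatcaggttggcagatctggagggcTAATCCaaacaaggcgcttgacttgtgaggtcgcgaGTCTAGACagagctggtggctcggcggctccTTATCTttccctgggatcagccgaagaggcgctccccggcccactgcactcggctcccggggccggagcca
The printed sequence of the 167 kb region carries 1 PITX, 1 LIM homeodomain and 1 HOX-PBX match close together near its 3′ end. In the 180 kb region there are 2 PITX matches and 3 LIM homeodomain matches, of which the first overlaps a HOX-PBX match and the last a GATA match. The region past the gene holds the palindrome GTCTAGAC, to which SMAD proteins bind, beside a PITX match, and it scored 585.19 at E9.5 and 629.99 at E10.5.

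Tbx5, the forelimb gene, lies at chr5:120284672-120335227 on the plus strand with 1 start at 120284672, and this start lay inside no region of either list. A low-scoring region in intron 1, centred 0.844 kb from the start, was found at E9.5 alone (chr5:120285010-120286022, score 89.91, percentile 4.11), and among promoter-proximal E9.5 regions of similar score 70.9% were specific. It ended 0.6 kb from an E10.5 region.

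That next region was shared and spans exon 2 and intron 2. Its score was 241.65 at E9.5 (chr5:120286668-120287866, percentile 47.6) and 74.17 at E10.5 (chr5:120286622-120287409, percentile 1.37). A difference of 46.2 points or more towards E9.5 was seen in 1.99% of all shared regions. The other shared region, in introns 5 and 6, stood higher at E10.5, with a score of 146.89 at E9.5 (percentile 27.4) and 210.87 at E10.5 (percentile 44.8). An E9.5-specific region 124.5 kb downstream scored 92.53. The highest score at E10.5 was that of an E10.5-specific region 31.1 kb upstream (chr5:120252691-120254356, score 257.56, percentile 52.4), and the nearest E9.5 region to it was the one in intron 1, 30.7 kb away.

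The regions with the highest Tbx5 scores at E10.5 are printed, the first in intron 5 and the adjoining coding exon and the second upstream of the gene. Capitals mark an NF-Y and a TCF/LEF match in the first and an SP match in the second.
Tbx5, intron 5 and adjoining exon, chr5:120294819-120295118, plus strand: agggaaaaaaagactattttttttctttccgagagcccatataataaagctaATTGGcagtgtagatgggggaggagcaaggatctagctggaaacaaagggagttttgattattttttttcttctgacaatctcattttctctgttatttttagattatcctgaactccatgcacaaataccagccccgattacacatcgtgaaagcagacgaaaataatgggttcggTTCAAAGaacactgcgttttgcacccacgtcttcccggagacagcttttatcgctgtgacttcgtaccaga
Tbx5, 31.1 kb upstream, chr5:120253373-120253672, plus strand: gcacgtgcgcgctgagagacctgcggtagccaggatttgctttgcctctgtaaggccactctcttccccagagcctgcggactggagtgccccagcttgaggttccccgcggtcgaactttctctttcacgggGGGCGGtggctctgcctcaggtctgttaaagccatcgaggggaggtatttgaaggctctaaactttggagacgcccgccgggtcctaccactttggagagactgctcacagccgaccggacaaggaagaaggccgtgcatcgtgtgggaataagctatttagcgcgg

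Base composition differed along with stage and gene. GC content was taken from 150 bases on each side of the centre. The 12 E9.5-specific regions had a median of 58.1% GC (46.2 to 73.8%), against 51.8% of all E9.5-specific regions. For the 10 E10.5-specific regions it was 40.0% (34.9 to 59.5%), against 44.2% of all E10.5-specific regions. Among distal regions alone, the 7 specific to E9.5 had a median of 54.2% (list 50.8%), and all 10 specific to E10.5 were distal (list 44.2%). Pitx1 gave the high side, with a median of 65.1% over its 5 E9.5-specific regions, and Isl1 the low side, with 38.2% over its 7 E10.5-specific regions. Whether base composition takes part in the differences between the stages was not tested.

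**Figure D4:**
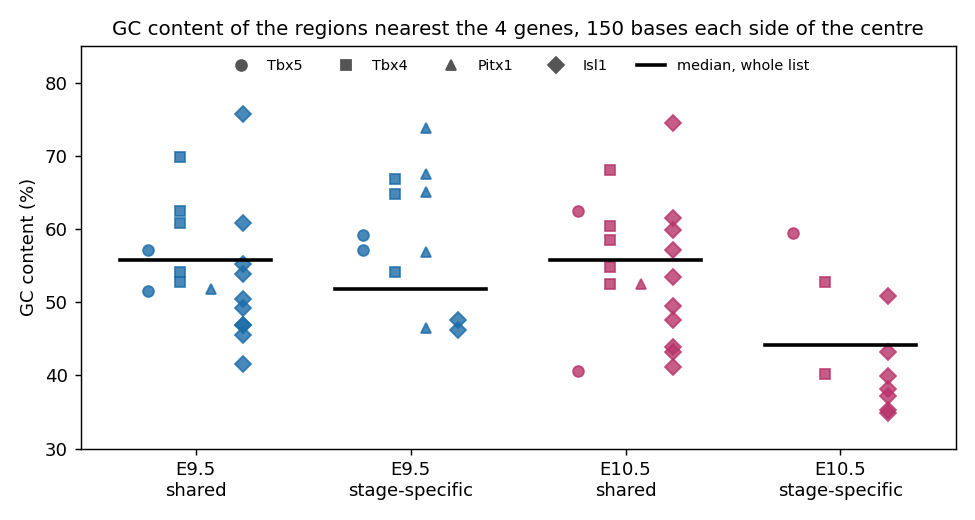
GC content in percent over 150 bases on each side of the centre of each region of the 4 genes, with points split into shared and stage-specific regions of E9.5 and E10.5. Symbols stand for genes and horizontal bars for the medians of the same class in the whole lists. E9.5-specific regions of the 4 genes have a median of 58.1%, above the bar at 51.8%, and E10.5-specific ones of 40.0%, under the bar at 44.2%.

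Matches to 13 short motifs were searched on both strands in the same window. PITX (TAATCC) was found in 8 of 30 E9.5 regions (26.7%), against 6.56% of the whole list, and in 8 of 28 E10.5 regions (28.6%), against 7.49%. The windows of shared regions overlap between the stages, and the matches came to 13 different positions, of which 10 were near Isl1. TCF/LEF (TTCAAAG) was found in 7 E9.5 regions (23.3%, list 6.09%) and 5 E10.5 regions (17.9%, list 7.21%), with its matches spread over all 4 genes.

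The LIM homeodomain motif (TAATTA), of the kind bound by Isl1 itself, was found in 1 E9.5 region (3.33%, list 5.12%) and 6 E10.5 regions (21.4%, list 8.78%), and HOX-PBX (TGATNNAT) in 2 (6.67%, list 11.2%) and 4 (14.3%, list 12.8%). The letters AGATAA of GATA factors matched in 7 (23.3%, list 10.4%) and 4 regions (14.3%, list 9.74%), and NF-Y (CCAAT) in 8 (26.7%, list 29.0%) and 16 (57.1%, list 32.6%). SP (GGGCGG) matched in 7 (23.3%, list 30.6%) and 3 (10.7%, list 25.7%). The list shares of the motifs are not matched for distance to a start. Of the regions of the 4 genes, 23 of 30 and 25 of 28 were distal. In the whole lists, SP matched in 15.1% and 10.4% of distal regions, and in 55.4% and 56.9% of promoter-proximal ones. The SP shares of the 4 genes were thus not below those of distal regions. LIM homeodomain matched in 7.17% and 11.98% of distal regions. T-box (AGGTGTG) matched in 1 region at each stage (lists 4.17% and 4.47%), AP-1 (TGANTCA) in 1 and 0 (lists 6.97% and 7.45%) and the E-box CATATG in 0 and 1 (lists 3.52% and 5.31%). SMAD (GTCTAGAC) matched in 1 and 1 (lists 0.284% and 0.306%), the same Isl1 region. GLI (GACCACCCA, lists 0.418% and 0.355%) and CTCF (lists 2.45% and 2.63%) had 0 matches in either set, and a count of 0 allows shares of up to 10% of the E9.5 and 10.7% of the E10.5 regions. Some matches overlap one another, namely 2 of 9 LIM homeodomain, 1 of 8 HOX-PBX and 1 of 11 GATA positions. The window follows the centre of a region, so that a match inside a shared region can be counted at a single stage. This was so for the LIM homeodomain matches upstream of Tbx4 and in Isl1 intron 3. The same held for NF-Y matches at the outermost Tbx4 start, in Tbx5 intron 5, in Isl1 intron 3 and past the Isl1 end. All of these lie inside an E9.5 region as well but were counted at E10.5 only. NF-Y matches in Tbx5 intron 2 lie inside regions of both stages and were counted at E9.5 only. Part of the stage differences therefore comes from the window. A match is a run of letters and not a binding event.

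Other genes of the limb field were compared by the same counts. Tbx3, the neighbour of Tbx5 and a gene of the limb margins, had 9 of 13 E9.5-specific and 3 of 7 E10.5-specific regions. Of 15 genes that start and maintain limb outgrowth, 15 at E9.5 and 12 at the later stage had a promoter-proximal region. Of their regions, 35 of 99 (35.4%, whole list 29.9%) and 53 of 121 (43.8%, whole list 35.0%) were specific.

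Among those 15, Fgf10, the growth factor that Tbx5 activates, had 2 of 6 E9.5-specific and 15 of 19 E10.5-specific regions, and Hand2, which prefigures the posterior limb bud, 1 of 10 and 11 of 19. Sall4, a zinc finger gene linked with Tbx5 in limb and heart, had 4 of 5 and 1 of 3, the order also seen for Pitx1. That order was common, since 8 of the 15 genes had the higher specific share at E9.5 and 6 had it at E10.5. The 11 Hox genes of limb levels had 14 of 38 E9.5-specific regions (36.8%, whole list 29.9%) and 0 of 28 at E10.5 (Wilson interval up to 12.1%, whole list 35.0%). A promoter-proximal region was present for 11 of them at E9.5 and 8 at E10.5. Of all promoter-proximal E10.5 regions, 5.31% were specific, and the Hox counts were not matched for distance to a start.

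**Figure D5:**
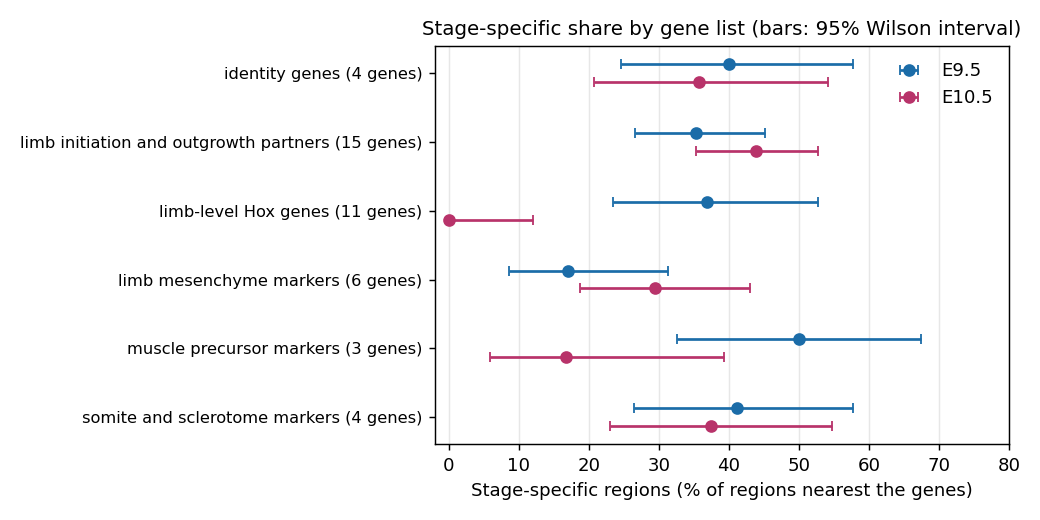
Percentage of stage-specific regions, on the horizontal axis, in 6 gene lists, with a point for E9.5 above one for E10.5 and 95% Wilson intervals that cover counting error only. Lists are the 4 limb identity genes, their partners, Hox genes, and markers of limb mesenchyme, muscle precursors and somites. The limb identity genes stand at 40% and 35.7%, and the Hox genes at 36.8% and 0%. The shares of the whole lists, 29.9% and 35.0%, are not drawn.

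Markers of other tissues were counted as well, since the E9.5 samples kept adjoining trunk. The limb mesenchyme genes Prrx1, Prrx2, Twist1, Msx1, Lhx2 and Lhx9 each had a promoter-proximal region at both stages, with 7 of 41 E9.5-specific and 15 of 51 E10.5-specific regions. Over the whole lists, 29.9% of E9.5 and 35.0% of E10.5 regions were specific. Muscle precursor genes had 14 of 28 (50%) and 3 of 18 (16.7%) specific regions. Among them Pax3 had 8 of 15 and 3 of 11, Lbx1 6 of 9 and 0 of 3, and Myf5 0 of 4 at each stage. Somite and sclerotome genes had 14 of 34 (41.2%, 26.4 to 57.8%) and 12 of 32 (37.5%), and neural tube genes 2 of 14 (14.3%) and 1 of 13 (7.69%). Heart genes had 5 of 9 (55.6%, 26.7 to 81.1%) and 0 of 4, and limb ectoderm genes 10 of 25 (40%) and 7 of 24 (29.2%). Gata4 alone of the 4 heart genes had a promoter-proximal region, at both stages, and Myh6 had 0 regions. The part of trunk tissue in the counts of Tbx5, Tbx4, Pitx1 and Isl1 was not tested.

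Genes with a pattern like that of a limb identity gene were taken from genes with at least 5 regions per list and a number of regions within 1.5 times its own, by the distance between their pairs of stage-specific percentages over the 2 lists. For Tbx4 there were 802 such genes, and 8 of them had the same percentages, among them 2810407A14Rik, Adra2a and Epb4.1l4a with 3 of 8 and 2 of 7. For Isl1 the nearest of 309 were Ralgapa2 (2 of 11 and 6 of 15, distance 1.92 points), Haao (3 of 17 and 9 of 23, 2.27 points) and Trio (2 of 11 and 6 of 16, 3.98 points). Tbx5 and Pitx1 had fewer than 5 regions in a list and were left out.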

How the data were processed

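ATAC-seq of mouse limb buds was analysed from 2 deposited lists of accessible regions. There was 1 list for E9.5 and 1 for E10.5, each made from 2 embryos. The tissue was forelimb buds, with adjoining trunk at E9.5 and, by the tissue label alone, hindlimb buds at E10.5. Per the labels and the study's methods, the authors aligned reads to mm9 with Bowtie 1.1.0, called regions per replicate with MACS 1.4 and merged replicates with MSPC (weak p-value 1e-06, stringent p-value 1e-10). The deposited score was set by the authors from the best MACS p-value in either replicate, as its negative log10 multiplied by 10. Replicate values and read totals were not used here, so depth is unknown and shares carry 95% Wilson intervals, with Newcombe intervals for their differences. All intervals and limits cover counting error only.

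Regions were assigned to the nearest of 70064 protein-coding starts of GENCODE vM1 (NCBIM37, identical to mm9). Overlap (at least 1 bp), distance and GC content were computed with Python 3.11.15, pandas 2.3.3 and pysam 0.24.0, and overlap and assignment were tested on simulated data. Sequences were read from NCBIM37. No tests between stages were made. Tbx5, Tbx4, Pitx1 and Isl1, the gene lists and the motifs were chosen with earlier results of these data known. Regions named singly were the promoter-proximal ones, the 3 highest-scoring ones overall and among the stage-specific, and the shared ones with the largest change of percentile, and the few remaining ones were added. Alternatives were other overlaps, promoter distances, score limits and gene assignments. Sox1 was not matched among the marker genes, and 1 further gene list is not reported here.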

Additional observations from a re-analysis of the deposited data

How the results depend on the processing

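Of 117 values recomputed under alternatives for 33 results, 83 stayed within the counting interval of a share or within 1.5 times a count, 32 moved further and 2 changed direction. The intervals are wide, and the 83 include a Tbx5 share of 25% at E9.5 and a Tbx5 difference of 0 within 100 kb of a start, and Isl1 differences from -13.3 to -41.7 points. With the higher-scoring 50% of both lists alone there were 0 and 1 Tbx5 regions, 1 and 3 Tbx4 regions, 3 and 0 Pitx1 regions, and 6 and 10 Isl1 regions (E9.5 and E10.5), with a specific share of 100% for Tbx5 at E10.5, 0% and 66.7% for Tbx4 and 100% for Pitx1 at E9.5. The Tbx4 difference then changed from 8.93 to -66.7 points. Setting the higher-scoring 50% against the whole other list, an alternative chosen after seeing the data, gave 100% for Tbx5 at E10.5, 0% for Tbx4 and 100% for Pitx1 at E9.5, and -33.3 points for Tbx4. With starts of all gene types, Tbx4 had 4 and 2 regions, an E10.5 share of 0% and a difference of 50 points, and Isl1 had 7 regions at E9.5 and a share of 0%. Counting every region within 100 kb of a start gave 16 and 13 regions for Tbx4, with an E10.5 share of 7.69%, and 6 and 10 for Isl1, with an E9.5 share of 0%. A promoter distance of 1 kb left 0 promoter-proximal Tbx5 regions at E10.5 and 1 Tbx4 region at E9.5, and 5 kb gave 2 for Tbx5 at E9.5 and 3 and 4 for Isl1. Taking the partner of longest overlap, also chosen after seeing the data, gave 13 of 18 shared regions of higher percentile at E10.5 in place of 14. The causes were not tested. No paired analysis was possible because the replicates of a stage had been merged, and leaving out a replicate was not run for the same reason. Shares over an empty set were not computed. Unknown depth limits every count, since a region missing from a list may lie just under its threshold.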

Other observations

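The genes on either side of Tbx5 and Isl1 each had at least 5 regions per list. Rbm19, the RNA-binding protein gene on the far side of Tbx5 at a gap of 231 kb, had 6 of 8 E9.5-specific and 3 of 5 E10.5-specific regions, and Tbx3, at a gap of 149.9 kb, had 9 of 13 and 3 of 7. Beyond Isl1, Parp8, which lies 544 kb away, had 0 of 6 E9.5-specific and 5 of 10 E10.5-specific regions, and Gm6404, 144 kb away on the other side, had 3 of 11 and 6 of 14. Next to Tbx4, Gm11444 had 0 of 2 and 0 of 3, and Brip1, a DNA helicase gene, 0 of 2 and 0 of 2. All 8 neighbours of the 4 genes together had 20 of 46 regions specific to E9.5 (43.5%) and 19 of 45 specific to E10.5 (42.2%). The whole lists had 29.9% and 35.0%, and the 4 genes themselves 40% and 35.7%.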
